A study of Mus musculus with 4 samples.

Results

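Circular RNAs (circRNAs) of an alveolar-stage mouse lung, taken at newborn day 7.5, were set against those of a canalicular-stage lung, taken at embryonic day 16.5. A circRNA belonged to the comparison if it had 10 or more junction reads in the 2 libraries together, and 1027 of the 7867 circRNAs listed in either library did. They held 62.97% of the alveolar and 60.3% of the canalicular junction reads. Both libraries are total RNA of C57BL/6 lung tissue with no genotype or treatment given. Each stage had 1 library, and the series also holds 1 pseudoglandular library (embryonic day 14.5) and 1 terminal sac library (embryonic day 18.5), whose reads are given as context. Whether a library came from 1 animal or from pooled animals is not stated in the labels. No difference below has a replicate check, so no p-value is given, and every interval covers counting error only.

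A circRNA forms when the end of an exon is spliced back to the start of the same exon or of an earlier one, which leaves a covalently closed loop with no cap and no poly(A) tail. Reads across that back-splice junction count the circle, and reads that run linearly across the same 2 ends count the linear RNA of its host gene. In the canalicular stage the distal airways widen and capillaries grow towards them, while in the alveolar stage septa divide the air spaces, elastin is laid down at the septal tips and surfactant is made by type 2 epithelial cells. In a whole-tissue library, fewer cells of a type and less RNA per cell cannot be told apart.

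The alveolar library listed 4474 circRNAs with 28332 junction reads from 2348 host genes, and the canalicular library listed 4947 circRNAs with 31218 junction reads from 2532 host genes. Of these circRNAs, 41.5% in the alveolar library and 37.6% in the canalicular library had only 2 reads. Both lists shared 1554 circRNAs, which held 58.9% of the alveolar and 62.4% of the canalicular reads. Of the compared circRNAs, 891 were listed in both libraries, 49 in the alveolar library alone and 87 in the canalicular library alone. The libraries shared 0 read names. One difference in the kind of junctions listed bears on many results. Junctions with few distinct alignment patterns for their reads, or with ends that share a directly repeated stretch of at least 6 bases, held 13.8% of the alveolar reads against 5.07% of the canalicular reads. They are called few-pattern and repeat-end junctions below. A repeat lets a linear read align as if it were spliced back, and whether these junctions are circles was not tested.

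The back-splice junctions of the circRNAs that carry the comparison are shown in 2 sets, 15 bases on each side, 5′ to 3′ on the host's strand, read from GENCODE M21 transcripts (mm10). The first set shows circles of both directions that were neither few-pattern nor repeat-end, with a Strn3 pair of which 1 circle was lower and the other was not called. Capitals mark the first 15 bases of the circle's first exon, and lower case marks the last 15 of its last exon.
Lamp3 exons 2 to 5, chr16:19673391-19701382, minus strand: actcctttggaaatgTAATTTTACATGGCT
Pde5a exons 7 to 12, chr3:122781567-122818067, plus strand: cagatgaaacatgagGACTCTTTCTCTCGT
Trpc6 exons 4 to 10, chr9:8634047-8658377, plus strand: cttgacaaaaatcagTTTGTGGCTCATCCA
Bub1b exons 17 to 19, chr2:118631759-118635277, plus strand: tgctccacccttcagAAGATGCTATTCAGT
Strn3 exons 2 to 7, chr12:51647994-51661713, minus strand: atggtacagaatgggGCACGGATTGCATTT
Strn3 exons 2 to 16, chr12:51619814-51661713, minus strand: ttgacaataaaacggGCACGGATTGCATTT
All 6 junctions lie in coding exons. The 2 Strn3 circles share their first exon, so their capitals are the same, and differ in the exon that is joined back to it.

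The second set shows why the most abundant alveolar junction is marked as repeat-end. It stays in the totals, shares and calls except where the text says that such junctions were left out. Eln, which encodes elastin, has repetitive coding sequence, and capitals mark the 14 bases that occur at both ends of its listed circle, chr5:134715684-134719222 on the minus strand, from exon 17 to exon 22.
Eln, listed back-splice junction: aagctgctAAGTATGGTGCTGGgggagctg
Eln, linear RNA across the start of exon 17: aagcagccAAGTATGGTGCTGGgggagctg
Eln, linear RNA across the end of exon 22: aagctgctAAGTATGGTGCTGGaggagctg
The listed junction differs from each linear sequence only outside the repeat. The Crip2 circle of exons 2 to 4, chr12:113143459-113144297 on the plus strand, has a repeat of 19 bases at its ends, and its junction reads agagagtgTACTTCGCTGAGAAGGTGAgct with the repeat in capitals.

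Share of junction reads was higher in the alveolar library for 116 of the 1027 circRNAs, or 11.3%, and lower for 147, or 14.3%. A circRNA was called when its share of the library's listed junction reads differed by 2-fold or more and the exact 95% interval of the ratio of shares excluded 1. A circRNA listed in 1 library only was set to 3 reads in the other, and its fold is then a lower bound for those exact coordinates. Of the higher circRNAs 37 were such bounds, and of the lower ones 42. The median log2 ratio of shares, alveolar over canalicular, was -0.28 over all compared circRNAs. The split of the calls depended on the scaling: scaling by the median ratio of circRNAs listed in both libraries gave 153 higher and 114 lower, and moved every log2 ratio up by 0.20. Among the 116 higher circRNAs 20 were few-pattern or repeat-end, and among the 147 lower ones 16. Without all such junctions in both libraries, 120 circRNAs were higher and 105 lower. At the edge of the rule, 113 of the 1027 compared circRNAs had exactly 10 reads and 0 of them were called in either direction. That outcome was set by the rule, since the interval from 10 reads is too wide for a call. Another 159 circRNAs had 9 reads and were not compared. The higher circRNAs together held 19.2% of the alveolar reads and 2.12% of the canalicular reads. The lower ones held 3.96% of the alveolar and 15.6% of the canalicular reads. The direction of these sums was set by the rule, which called the circRNAs on the same shares. Of the 19.2%, the repeat-end Eln junction held 5.81% of the alveolar reads and the few-pattern Sftpc junction 1.84%.

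**Figure D1:**
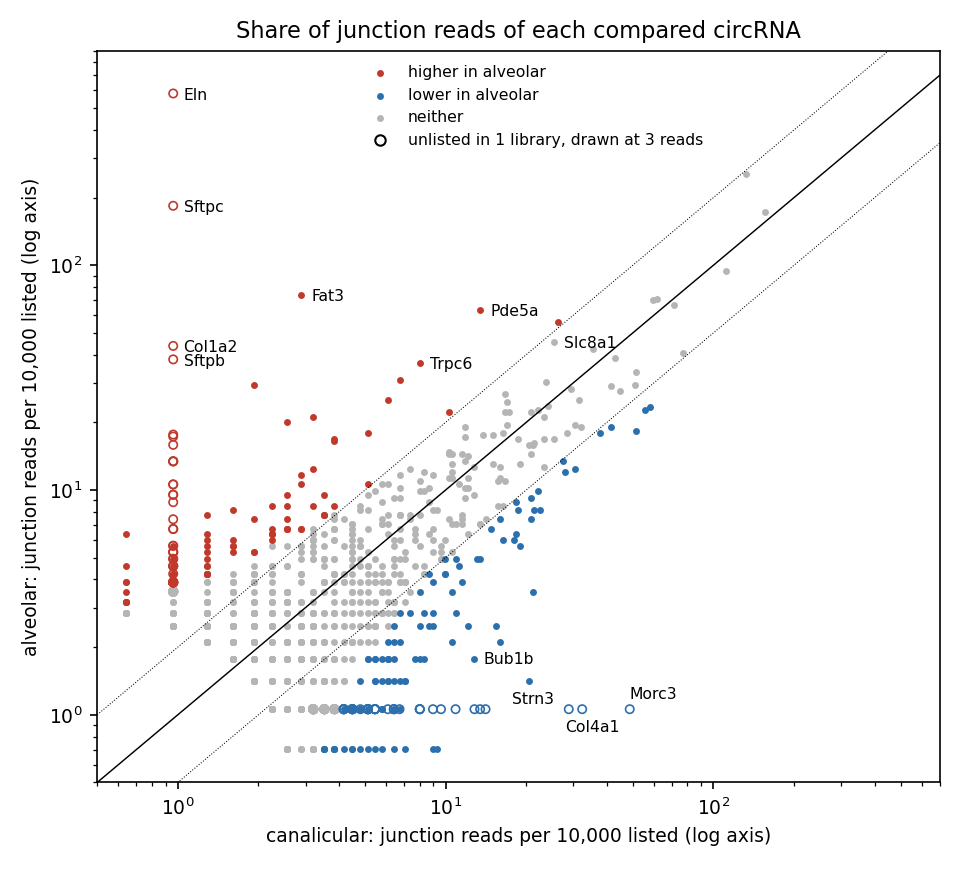
Share of listed junction reads of each of the 1027 compared circRNAs, alveolar on the vertical and canalicular on the horizontal axis, both logarithmic, with lines at equal shares and at 2-fold. The 116 circRNAs higher in the alveolar library and the 147 lower ones lie outside the dotted lines, open circles were unlisted in 1 library and are drawn at 3 reads, and the Eln and Sftpc junctions stand farthest from the diagonal.

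Circles of the surfactant-producing epithelium stood among the higher ones. Lamp3 encodes a lysosomal membrane protein of lamellar bodies, the organelles in which type 2 cells store surfactant, and its circle of exons 2 to 5 had 83 junction reads in the alveolar and 6 in the canalicular library. The pseudoglandular library listed 0 of its reads and the terminal sac library 47. Its share was 15.2-fold higher in the alveolar library (95% interval 6.71 to 42.7), and its reads had 61 distinct alignment patterns there. Junctions in Sftpc and Sftpb, the genes of surfactant proteins C and B, had 521 and 108 alveolar reads and were unlisted in the canalicular library. That made the Sftpc junction at least 191-fold and the Sftpb junction at least 39.7-fold higher, but both were few-pattern: the 521 Sftpc reads had 16 patterns and the 108 Sftpb reads had 5. The Sftpc junction had a junction ratio of 0.7% beside 154593 linear reads across its ends, and its ends lie inside exons. It was also listed in the terminal sac library, with 372 reads. A junction in Slc34a2, the phosphate transporter of type 2 cells, had 27 alveolar reads, was unlisted in the canalicular library, and was both repeat-end and few-pattern.

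Junctions of matrix genes were among those with most alveolar reads, and many of them were few-pattern or repeat-end. The Eln junction shown above had 1646 reads in the alveolar library, which were 5.81% of all its listed reads, and was unlisted in the other 3 libraries. Its share was at least 605-fold higher in the alveolar library. A few-pattern junction of Col1a2 exons 8 to 10, in the gene of a type I collagen chain, had 124 alveolar reads and was unlisted in the canalicular library, a share at least 45.5-fold higher. Few-pattern junctions of Col5a1 with 50 reads, Hmcn1 with 38 and Col3a1 with 38 were likewise listed in the alveolar library and unlisted in the canalicular one. Hmcn1 encodes hemicentin 1, a matrix protein, and the other 2 encode fibrillar collagen chains. The fibrillin 1 gene Fbn1 had a junction of exons 47 and 48 listed in both, with 57 alveolar and 8 canalicular reads, 7.85-fold higher (3.73 to 19.1), and it too was few-pattern, with 16 patterns in the alveolar and 5 in the canalicular library. The canalicular library had its own junctions of this kind. Col4a1, a chain of basement membrane collagen, had 0 alveolar and 101 canalicular reads for a repeat-end, few-pattern junction of exons 24 to 27, and Col6a1, a chain of collagen VI, had 0 and 34 for a few-pattern junction of exons 10 to 20.

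Among genes of smooth muscle and contractile signalling, Pde5a, Trpc6 and Prkce supplied circles that were higher with many alignment patterns. Pde5a encodes the phosphodiesterase that breaks down cyclic GMP, the messenger of nitric oxide in smooth muscle. Its circle of exons 7 to 12 had 180 alveolar and 42 canalicular reads, with 32 in the pseudoglandular and 67 in the terminal sac library, and its share was 4.72-fold higher in the alveolar library (3.36 to 6.78). Trpc6, a cation channel of smooth muscle, had 104 alveolar and 25 canalicular reads for the circle of exons 4 to 10, a 4.58-fold higher share (2.94 to 7.41). Protein kinase C epsilon, encoded by Prkce, had 48 alveolar and 12 canalicular reads for the circle of exons 7 to 10, a 4.41-fold higher share (2.31 to 9.12). None of these 3 circles was few-pattern or repeat-end.

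Several other higher circles were free of both marks. The largest fold among circles listed in both libraries belonged to a circle with no deposited host, named here from M21 after its values were seen: both its ends match exon 2 of Fat3, an atypical cadherin, at chr9:16374949-16378254. This Fat3 circle had 209 alveolar and 9 canalicular reads, with 18 pseudoglandular and 28 terminal sac reads, and its share was 25.6-fold higher in the alveolar library (13.2 to 56.7). Lrch1, a protein with leucine-rich repeats and a calponin homology domain, had 60 alveolar and 10 canalicular reads for exons 3 to 10, a 6.61-fold higher share (3.36 to 14.5). Rmdn2, a regulator of microtubule dynamics, had 47 and 12 reads for exons 3 to 5, a 4.32-fold higher share (2.25 to 8.94). The adhesion receptor gene Adgrl3 had 18 alveolar and 2 canalicular reads for its exon 6, a 9.92-fold higher share (2.37 to 88.1). Efnb2, the gene of ephrin-B2, an arterial endothelial ligand, had 23 and 5 reads for a junction of intron type, a 5.07-fold higher share (1.88 to 17.1). In Ptprm, a receptor tyrosine phosphatase, the higher junction was of intron type with 21 alveolar and 0 canalicular reads, and the pseudoglandular library had 26, so its reads did not follow the order of age.

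Circles lower in the alveolar library came from genes of varied function. The longest Strn3 circle, of exons 2 to 16, had 4 alveolar and 64 canalicular reads, with 41 in the pseudoglandular and 46 in the terminal sac library, so the alveolar library stood apart from the other 3. Strn3 encodes striatin 3, a regulatory subunit of protein phosphatase 2A, and the share of this circle was 14.5-fold lower (5.4 to 54.9). Bub1b encodes BubR1, a kinase of the spindle assembly checkpoint. Its circle of exons 17 to 19 had 6 alveolar and 50 canalicular reads, 39 pseudoglandular and 51 terminal sac reads, and its share was 7.56-fold lower (3.24 to 21.6). Dhx15, an RNA helicase of the spliceosome, had 7 alveolar and 48 canalicular reads for exons 2 and 3, 6.22-fold lower (2.80 to 16.3). Mpp6, a membrane scaffold of the guanylate kinase family, had 10 and 66 reads for exons 2 to 6, 5.99-fold lower (3.06 to 13.1). Hdgfl3, a relative of hepatoma-derived growth factor, had 5 and 40 reads for exons 2 to 5, 7.26-fold lower (2.87 to 23.6), and 78 pseudoglandular reads. The circle of exons 2 to 4 of Bard1, the partner of BRCA1 in DNA repair, had 2 and 18 reads, and that of exons 2 to 5 of the mismatch repair gene Pms1 had 7 and 38.

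The most extreme lower circle was in Morc3, a nuclear ATPase of chromatin. It spans chr16:93847276-93853217, had 0 alveolar and 152 canalicular reads, 84 pseudoglandular and 44 terminal sac reads, and its share was at least 46-fold lower. Its canalicular reads had 56 patterns and its junction ratio there was 26.1%, but its ends do not both match exon boundaries of 1 M21 transcript. A second Morc3 circle of exons 5 to 7 had 0 alveolar and 16 canalicular reads, while that of exons 6 to 8 had 19 alveolar and 12 canalicular reads and was not called. Few-pattern junctions also stood among the leading lower ones: Slc38a5, a glutamine transporter, with 0 alveolar and 40 canalicular reads in 5 patterns, Gpbp1 with 0 and 30 in 5 patterns, and Tln1, the gene of talin 1, with 0 and 28 in 7 patterns. Each of these 3 was unlisted in the pseudoglandular and terminal sac libraries as well.

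**Figure D2:**
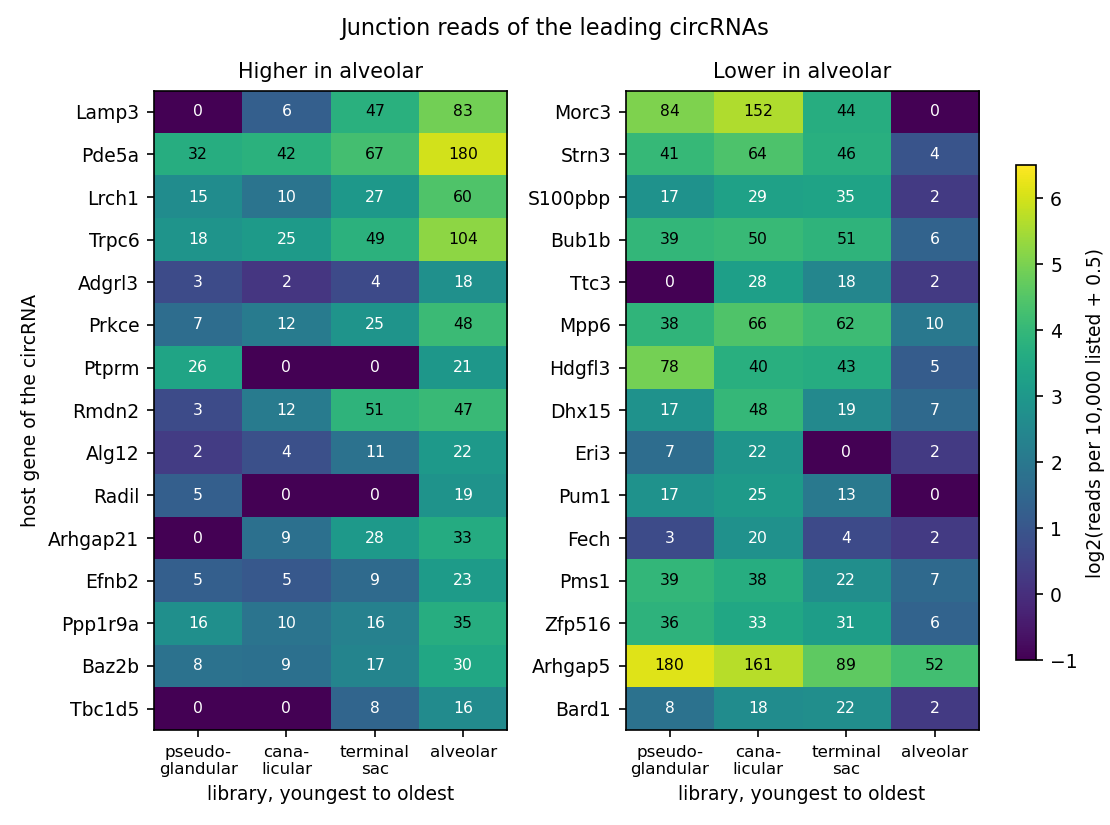
Junction reads in all 4 libraries, from the youngest to the oldest, for the leading 15 higher and 15 lower circRNAs, 1 per gene. All were neither few-pattern nor repeat-end and have a deposited host. The ranking put those whose nearer interval end lay farthest from 1 at the top. Each cell prints the junction reads and its colour gives the log2 of reads per 10000 listed plus 0.5, on 1 scale for both panels. The alveolar column holds between 16 and 180 reads on the left and between 0 and 52 on the right.

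Most of the circles with most reads were not called in either direction. The Tulp4 circle at chr17:6137211-6139156 had 489 alveolar and 488 canalicular reads, a ratio of shares of 1.10 (0.972 to 1.25), with a junction ratio of 78.1% in the alveolar and 83.9% in the canalicular library. Zfp827 exons 6 to 8 had 188 and 223 reads, Ube2k exons 2 to 6 had 200 and 192, and Nfix exon 2 had 199 and 186, and none of the 3 was called. The main Strn3 circle, of exons 2 to 7, had 268 and 349 reads. Mettl9 exons 2 to 4 had 115 alveolar and 240 canalicular reads, a ratio of shares of 0.53 (0.419 to 0.662), which is inside 2-fold. In 18 circles listed in both libraries the junction ratio was above 50% in each.

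Summed by host gene, 149 of 1135 hosts, or 13.1%, had a higher share in the alveolar library and 171, or 15.1%, had a lower one. Scaled by the median ratio of hosts listed in both libraries, 176 were higher and 142 lower. Host sums add genes whose reads are spread over many circles. Prex2, an exchange factor for Rac, had 63 alveolar reads over 15 circles and 5 canalicular reads over 2, a 13.9-fold higher share (5.65 to 44.2), with 55 reads in the terminal sac library. Macf1, which links microtubules to actin, had 74 alveolar reads over 20 circles and 21 canalicular reads over 6, 3.88-fold higher (2.36 to 6.64). Frem1, a basement membrane protein, had 34 reads over 11 circles and 9 reads over 3, 4.16-fold higher (1.96 to 9.87). Dennd4a, an exchange factor for Rab GTPases, had 35 reads over 6 circles and 4 reads over 2. Among the lower hosts, Morc3 had 24 alveolar and 188 canalicular reads, 7.11-fold lower (4.63 to 11.4). Bub1b had 6 and 61 reads, 9.23-fold lower (4.0 to 26.1). Depdc1b, a gene of the cell division program, had 2 and 33 reads, 15-fold lower (3.83 to 129), though 17 of its canalicular reads were of a few-pattern junction, and Mbtd1, a chromatin reader, had 4 and 41, 9.30-fold lower (3.37 to 35.8). Fech, the last enzyme of haem synthesis, had 2 and 25 reads, 11.3-fold lower (2.83 to 98.8). Uty, a gene of the Y chromosome, had 26 alveolar and 2 canalicular reads. The labels give no sex. Named Y-linked hosts summed to 32 alveolar and 2 canalicular reads, but all junctions on the Y chromosome summed to 34 and 18. Xist had 0 and 3 reads, and what sex contributed to these hosts was not tested.

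Lists of alveolar epithelial and endothelial markers had more higher than lower hosts, beside 13.1% higher and 15.1% lower over all hosts. In the text that follows, a list's share is its summed junction reads as a percentage of all listed junction reads, and its median is the median log2 ratio of host shares with an unlisted host at 3 reads; that median was -0.20 over all 1135 hosts. Of 6 measured type 2 epithelium hosts 4 were higher (Sftpc, Sftpb, Lamp3, Slc34a2) and 1 lower, Etv5, a transcription factor of these cells, with 0 alveolar and 18 canalicular reads. The list held 2.76% of the alveolar and 0.109% of the canalicular reads, with a median of 3.82. Without few-pattern and repeat-end junctions 3 hosts remained measured, of which Lamp3 was higher and Etv5 lower, with shares of 0.520% and 0.115% and a median of 0.54. Of 4 type 1 epithelium hosts 3 were higher: Limch1 with 20 alveolar and 2 canalicular reads, Radil with 19 and 0, and Rtkn2 with 12 and 0. Their counts did not depend on the marked junctions. In the pseudoglandular and terminal sac libraries Limch1 had 2 and 18 reads, Rtkn2 0 and 7, and Radil 5 and 0. Only 1 of the 4 hosts had 20 or more reads in the pair. The defining type 1 genes Ager, Hopx and Pdpn, and the type 2 genes Abca3 and Napsa, had no listed circRNA in either library, so these cell types were seen through few of their markers. Among epithelial regulators, Foxp1 was higher, with 39 alveolar and 19 canalicular reads, and Esrp1, an epithelial splicing factor, was lower, with 2 and 13.

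Of 7 endothelial hosts 6 were higher and 0 lower, beside 13.1% higher and 15.1% lower over all hosts. The list held 0.692% of the alveolar and 0.183% of the canalicular reads, with a median of 2.14. Pecam1, an adhesion molecule of endothelial junctions, had 39 alveolar and 19 canalicular reads, 2.26-fold higher (1.28 to 4.14). Adgrf5, an adhesion receptor, had 11 and 2, Dysf, a membrane repair protein, had 19 and 5, and Calcrl, the receptor of adrenomedullin, had 14 and 0. Tek, the receptor of angiopoietins, had 12 and 0, of which 5 alveolar reads were of marked junctions. Ldb2 alone of the 7 was in the other direction, with 7 and 13 reads, and was not called. The defining genes Cdh5, with 3 and 0 reads, and Kdr, with 2 and 0, were under the minimum. So were Flt1 with 2 and 4, Mecom with 0 and 4 and Erg with 0 and 2. The other listed hosts under the minimum had more alveolar than canalicular reads. Without the marked junctions 5 of 6 measured hosts were higher.

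Of 6 smooth muscle, myofibroblast and pericyte hosts 3 were higher and 0 lower, beside 13.1% higher and 15.1% lower over all hosts. The list held 2.51% of the alveolar and 0.852% of the canalicular reads. Pde5a made up most of it, with 516 alveolar and 211 canalicular reads, 2.69-fold higher (2.29 to 3.18). Myocd with 13 and 6 reads, Prkg1 with 10 and 0 and Itga8 with 5 and 6 were not called. The contractile genes Myh11, with 5 and 0 reads, and Mylk and Cald1, with 2 and 2 each, were under the minimum. Of 5 mesenchymal and fibroblast hosts 4 were higher, beside 13.1% of all hosts. They were Macf1, described above, Scn7a, Zeb1 and Limch1, which the type 1 epithelium list also holds. Scn7a, a sodium channel, had 62 alveolar and 23 canalicular reads, 2.97-fold higher (1.81 to 5.02), and Zeb1, a repressor of epithelial genes, had 48 and 23, 2.30-fold higher (1.37 to 3.96). Nfix was not called, with 206 and 195 reads. Under the minimum, Tbx4 had 0 and 8 reads, Nfia 0 and 3, and Pdgfra and Meox2 0 and 2 each. Npnt had 7 and 2, Gli3 4 and 3, Gli2 2 and 3, and Zeb2, Tbx5, Mfap5 and Tgfbr3 2 and 0 each. Elastic fibre and fibrillar matrix hosts held 7.55% of the alveolar and 0.497% of the canalicular reads, and 7 of 11 were higher and 2 lower, Col6a1 and the proteoglycan gene Vcan. This rested mostly on marked junctions: without them the shares were 0.348% and 0.270%, and of 5 measured hosts Eln was higher, with 13 alveolar and 2 canalicular reads, and Vcan lower, with 2 and 20.

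Cell cycle hosts went the other way, with a median of -0.95. Of 21 measured, 7 were lower, or 33.3%, and 1 higher, beside 15.1% lower and 13.1% higher over all hosts. The list held 1.23% of the alveolar and 2.40% of the canalicular reads. Besides Bub1b, the lower ones included Top2a, the topoisomerase of chromosome condensation, with 2 alveolar and 17 canalicular reads, Tpx2, a spindle protein, with 4 and 16, Knl1, a kinetochore scaffold, with 16 and 48, and the helicase gene Hells with 3 and 15. Smc4, a condensin subunit, had 14 and 46 reads, but 25 of the canalicular reads were of a marked junction. Ezh2, the methyltransferase of the Polycomb complex, had the most reads of the list, 74 alveolar and 157 canalicular, and at 1.93-fold lower (1.45 to 2.57) was inside the fold limit. Cdk14 was the 1 higher host, with 13 and 0 reads. Without marked junctions 5 of 20 were lower, and scaling by the median ratio left 6 of 21 lower.

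Chromatin regulators were lower in 9 of 37 hosts, or 24.3%, and higher in 2, beside 15.1% lower and 13.1% higher over all hosts. Scaling by the median ratio left 7 of 37 lower, and leaving out marked junctions left 7 of 36. The list had a median of -0.56 and shares of 3.31% in the alveolar and 4.97% in the canalicular library. Phf21a, a component of a histone demethylase complex, had 70 and 197 reads, 2.55-fold lower (1.94 to 3.40), with 23 of the canalicular reads of marked junctions, and Kmt2e had 4 and 24. The acetyltransferase gene Ep300 was higher, with 14 and 2 reads. Of 33 widely described circRNA hosts 2 were higher and 5, or 15.2%, lower, which is near the 15.1% over all hosts and no result about this list. The lower ones included Hipk3, a kinase, with 35 alveolar and 95 canalicular reads, 2.46-fold lower (1.66 to 3.74), and Cdyl, a chromodomain protein, with 71 and 189, 2.42-fold lower (1.83 to 3.22). Scaling by the median ratio turned this list's median to 0.10, against -0.04.

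Signalling lists were split and had few measured hosts, beside 13.1% higher and 15.1% lower over all hosts. Of 7 Wnt hosts 1 was higher and 2 lower: the co-receptor gene Lrp6 had 37 alveolar and 86 canalicular reads, 2.11-fold lower (1.42 to 3.19), and Ctnnb1, the gene of beta-catenin, had 0 and 22. The Lrp6 call was lost when scaled by the median ratio and when marked junctions were left out, with 1 Wnt host lower in each, and scaling by non-junction reads left 0 higher. Of 12 TGF-beta and BMP hosts 2 were higher and 2 lower, 16.7% each, which is near the shares of all hosts. The higher ones were the inhibitor Smad6 with 14 and 0 reads and Trim33 with 18 and 3. The lower ones were the BMP effector Smad1 with 8 and 34 and the receptor Bmpr1b with 2 and 17. FGF, Hedgehog and Notch hosts had 1 lower and 0 higher of 10, but 0 lower and 1 higher when scaled by the median ratio, and the growth factor receptor gene Fgfr2 had 41 and 78 reads, uncalled. In the insulin and IGF list Insr, the insulin receptor, was higher, 65 reads against 32. RNA-binding proteins were higher in 2 and lower in 4 of 22, and ubiquitin enzymes in 3 and 4 of 31, shares near the 13.1% higher and 15.1% lower of all hosts. Metabolic hosts were higher in 0 and lower in 2 of 6, or in 1 when scaled by the median ratio.

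Lists of other cell types were also read, and their counts rest on few measured hosts, beside 13.1% higher and 15.1% lower over all hosts. The cardiac and striated muscle list had 201 alveolar and 141 canalicular reads, of which the calcium channel gene Cacna1c held 116 and 91. Immune hosts were 1 higher and 1 lower of 5 and held 0.131% of the alveolar and 0.221% of the canalicular reads, with Ptprc and Csf1r unlisted in both. Erythroid hosts rested on Epb41, a membrane skeleton protein, with 5 alveolar and 25 canalicular reads, and the defining genes Hbb-bs and Slc4a1 were unlisted. Cardiac and striated muscle hosts held 0.709% and 0.452%, with 1 of 6 higher, Nebl, with 38 alveolar and 12 canalicular reads; Ttn had 10 and 11, and Myh6 and Actn2 were unlisted. Neuronal hosts had 1 higher and 1 lower of 2, cartilage rested on Sox6 with 0 and 12 reads, airway epithelium on Dnah11 with 11 and 8, and mesothelium had 0 measured hosts. What other tissue in either sample contributed to the calls was not tested.

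**Figure D3:**
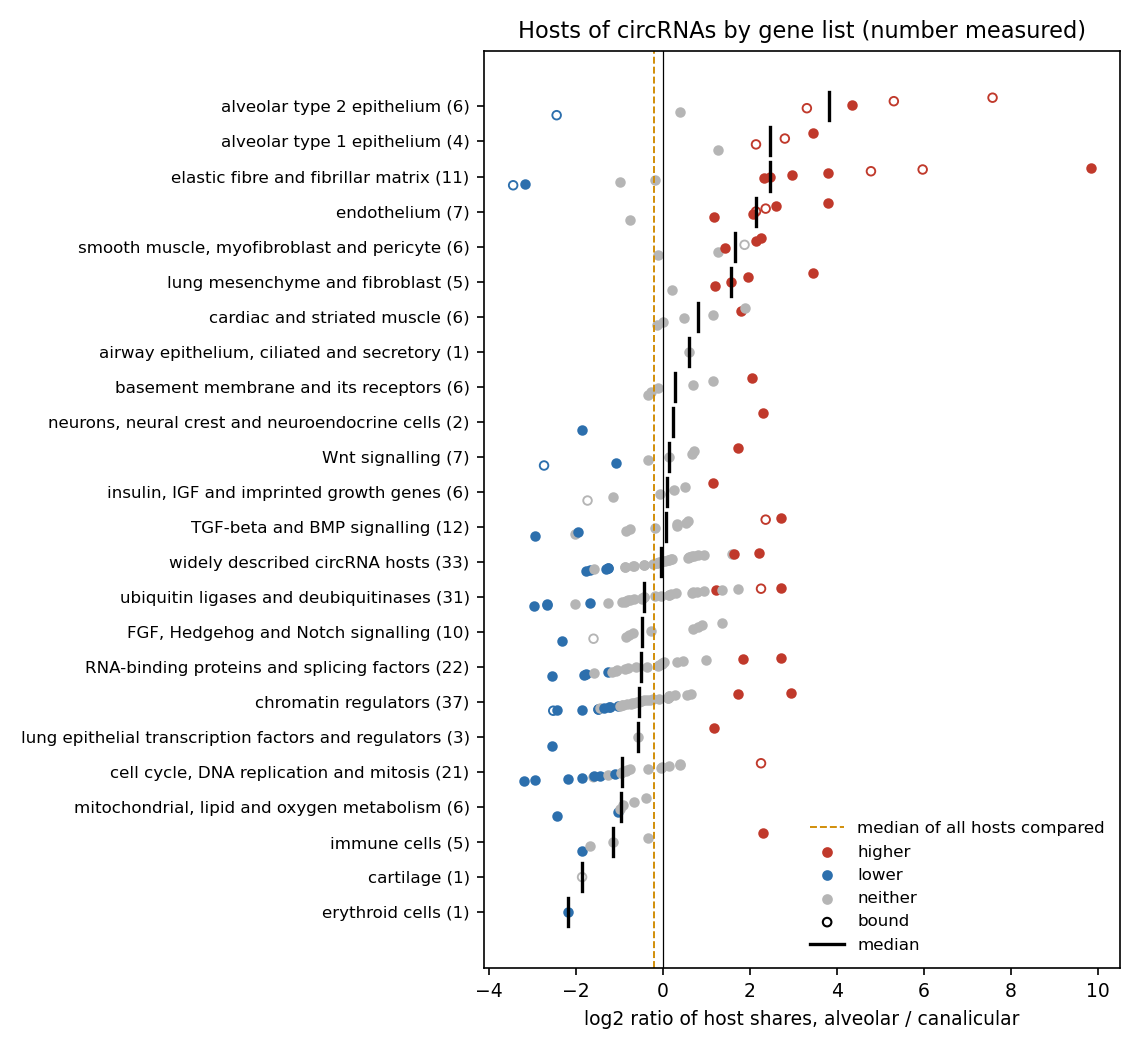
Log2 ratio of host shares of junction reads, alveolar over canalicular, for every measured host of the gene lists shown, with each list's median as a black bar and the median of all 1135 hosts as a dashed line. Open circles are bounds from hosts unlisted in 1 library. Endothelium has 6 of 7 hosts on the higher side called, and the cell cycle list has 7 of 21 called lower. Over all hosts 13.1% were higher and 15.1% lower.

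The junction ratio sets a circle against the linear RNA of its own ends, so it is not scaled by library. Of 891 circRNAs listed in both libraries 89, or 9.99%, had a higher ratio in the alveolar library and 83, or 9.32%, a lower one, by an odds ratio of junction to linear reads of 2-fold or more with a 95% interval that excluded 1. The median ratio was 5.8% in the alveolar and 5.5% in the canalicular library, and the median odds ratio was 1.02. Because junction reads enter both measures, the 2 calls are not independent. Of the 79 circRNAs higher by share and listed in both, 41 were also higher by ratio and 0 lower, and of the 105 lower by share 44 were also lower by ratio and 0 higher.

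Some circles called by share were also called by ratio, and others were not. Lamp3 exons 2 to 5 had a junction ratio of 5.3% in the alveolar and 0.6% in the canalicular library, while linear reads at its ends were 2956 and 1854, an odds ratio of 8.06 (3.62 to 17.9). Rmdn2 had 28.5% and 5.6%, an odds ratio of 6.55 (3.44 to 12.5), and Lrch1 had 30.1% and 7.4%, 5.14 (2.61 to 10.1). The Fat3 circle had 58.5% and 35.3%, an odds ratio of 2.48 (1.18 to 5.21). By contrast, Trpc6 exons 4 to 10 had ratios of 30.4% and 26.7%, an odds ratio of 1.18 (0.736 to 1.89), with 477 and 137 linear reads. Bub1b exons 17 to 19 had 7.8% and 7.9%, with 142 and 1158 linear reads, so circular and linear reads were both lower. Its odds ratio was 1.05, with an interval of 0.454 to 2.41 that does not exclude a 2-fold difference either way.

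Lower ratios were led by the long Strn3 circle, with 1.2% in the alveolar and 11.6% in the canalicular library, odds 9.79-fold lower (3.75 to 25.6). Klf7 exon 2, in the gene of a Krüppel-like transcription factor, had 3.9% and 19.7%, from 9 and 20 junction reads but 445 and 163 linear reads, odds 5.88-fold lower (2.67 to 13.0). Hipk3 exon 2 had 10.4% and 27.5%, odds 3.25-fold lower (2.17 to 4.86), with 605 and 501 linear reads. Nfix exon 2, whose share was not called, had 28.4% and 43.6% as its linear reads were 1005 and 482, with odds 1.95-fold lower (1.55 to 2.45), inside the limit.

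**Figure D4:**
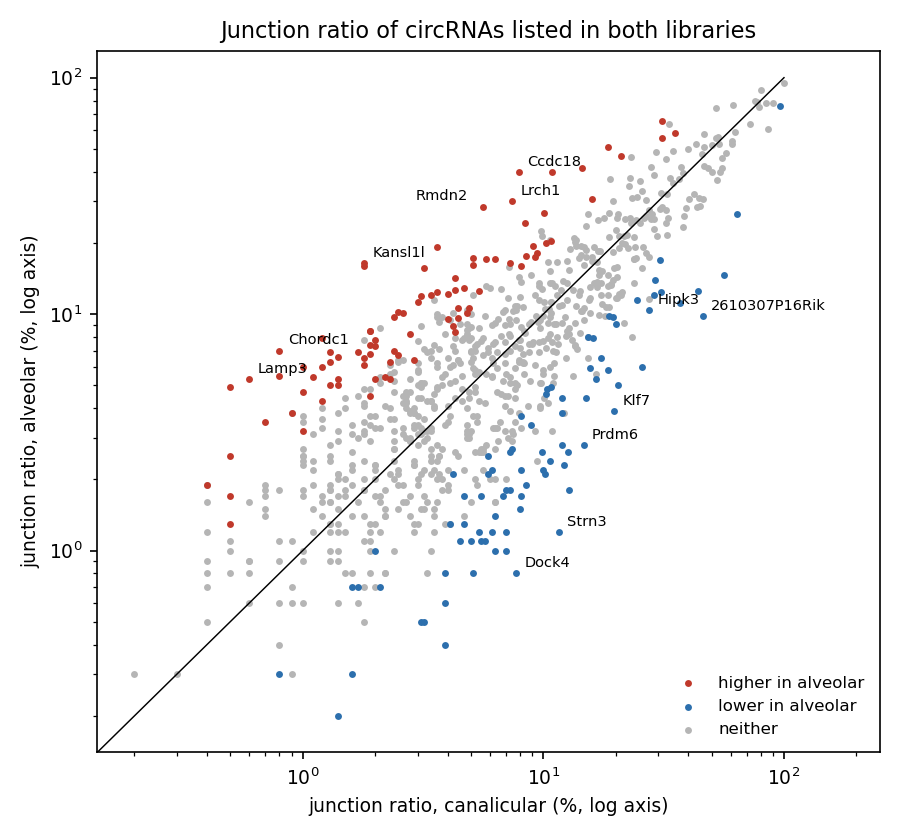
Junction ratio in percent of the 891 circRNAs listed in both libraries, alveolar on the vertical and canalicular on the horizontal axis, both logarithmic, with a line at equal ratios. The 89 circRNAs with a higher and the 83 with a lower ratio lie on both sides of the line, and Lamp3 and Strn3 are among the farthest.

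Within 1 gene, circles did not always go together. Of 171 genes with 2 or more compared circRNAs, 5 had both a higher and a lower one: Col4a1, Kansl1l, Kansl1, Col6a2 and Tns3. In Strn3 the circles share exon 2 and end at different exons. That of exons 2 to 7 had 268 alveolar and 349 canalicular reads, that of exons 2 to 8 had 3 and 21, that of exons 2 to 15 had 23 and 70, and that of exons 2 to 16 had 4 and 64. The 3 longer ones were lower, 6.35-fold (1.90 to 33.3), 2.76-fold (1.70 to 4.64) and 14.5-fold, while the shortest of the 4 was not called. In Pde5a, 4 circles were higher by 2.14-fold to 4.72-fold: exon 2 with 159 alveolar and 82 canalicular reads, exons 7 to 12 with 180 and 42, exons 8 to 12 with 71 and 19, and exons 8 to 11 with 51 and 16. Those of exons 4 to 11, with 12 and 13 reads, and of exons 4 to 12, with 17 and 10, were not called. Rere, a transcriptional corepressor, had 28 distinct circRNAs in the pair, the most of any host. Its exon 2 circle had 63 alveolar and 54 canalicular reads, while the circles of exons 2 to 7 with 0 and 16, of exons 2 to 10 with 0 and 15, and of exons 2 to 3 with 3 and 15 were lower. Kansl1l encodes a relative of a subunit of a histone acetyltransferase complex. Its circle of exons 2 to 5 had 10 and 33 reads and that of exons 2 to 6 had 4 and 21, both lower. In 2 other Kansl1l circles the ends do not both match exon boundaries of 1 M21 transcript. That at chr1:66772906-66807604 had 16 and 4 reads and was higher, and that at chr1:66762048-66807604 had 0 and 14 and was lower. In Col4a1 the circle with most reads, of exons 35 to 39, had 722 and 412 reads, a ratio of 1.93 (1.71 to 2.18) just inside the limit that scaling by the median ratio took to 2.21 and a call, and every called Col4a1 junction was few-pattern.

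The called circles also differed in structure, which the rule did not use. Of higher circRNAs with both ends at exon boundaries, 25 of 98 began at exon 2, or 25.5%, of lower ones 71 of 125, or 56.8%, and of uncalled ones 305 of 699, or 43.6%. The median spliced length was 584.5 nucleotides for the higher, 778 for the lower and 628 for the uncalled circRNAs. Leaving out few-pattern and repeat-end junctions gave 22 of 82 higher, 69 of 114 lower and 301 of 684 uncalled circRNAs that began at exon 2, with median lengths of 604.5, 796.5 and 627. Restricting to circRNAs listed in both libraries gave 27.9%, 60% and 43.8%. Lower circRNAs also spanned more of the genome, a median of 11838 bases against 6365 for the higher ones. These counts are a description, since several circles share a host and exon numbers depend on the transcript chosen.

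**Figure D5:**
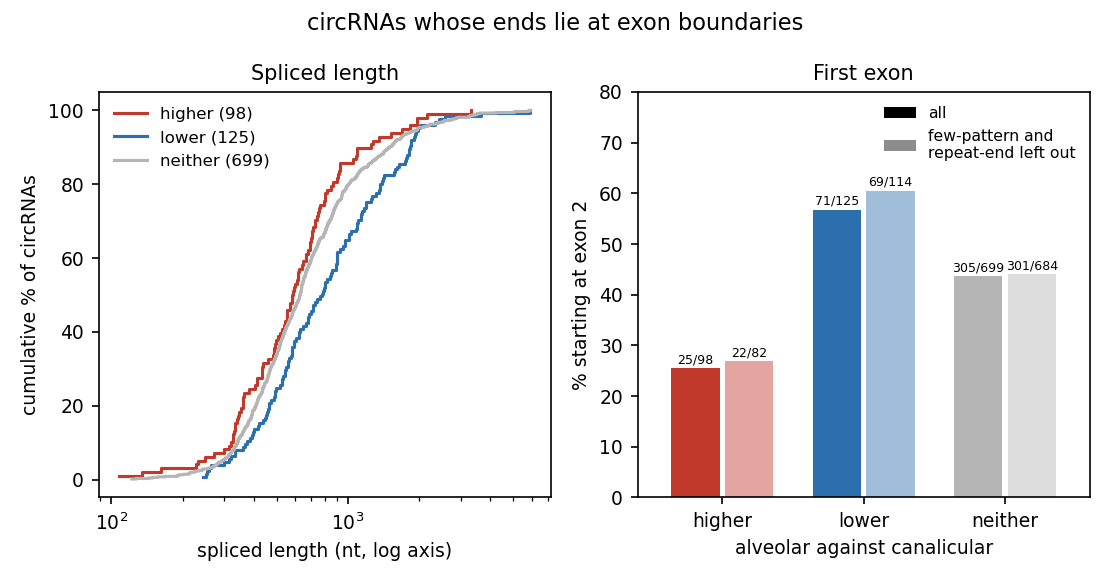
Spliced length (left, cumulative percent of circRNAs, logarithmic axis) and percent starting at exon 2 (right) of circRNAs with both ends at exon boundaries, by call in the alveolar against the canalicular library; pale bars leave out few-pattern and repeat-end junctions and numbers give circRNAs starting at exon 2 of all. Higher circRNAs were shorter and began at exon 2 in 25 of 98 cases, lower ones in 71 of 125.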

How the data were processed

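Total RNA of C57BL/6 mouse lung was extracted with TRIzol and sequenced, 1 library per stage, per the labels' protocols. Column names match the caller CIRI; the submitters' processing notes list mm10, BWA, HTSeq, StringTie, HISAT2 2.0.5 and cutadapt with no roles, and settings of the caller are not stated there. Junction and non-junction reads were deposited by the authors as raw counts, per the file headers, and blanks among the non-junction counts were set to 0. Junction ratios are the authors' own fraction values, per the file headers, and were recomputed with 0 mismatches as 2 times the junction reads over that plus the non-junction reads. No listed circRNA had fewer than 2 reads, so whether a circRNA is listed varies with depth. All 4 libraries name 1 flow-cell lane.

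Shares were compared with exact conditional binomial 95% intervals. An unlisted circRNA needed 11 alveolar reads for a higher call or 13 canalicular reads for a lower one. Junction to non-junction odds used Woolf's interval with 0.5 added to each count, and its variance used the reads themselves. Few-pattern means that, in the library of the pair with more reads (5 or more), distinct alignment patterns numbered under 0.5 of the reads, counted up to 50. Host genes are the deposited Ensembl identifiers, of which 4590 of 4647 are in GENCODE M21 on the same build. Both ends matched exon boundaries of 1 transcript in 10070 of 13499 circRNAs and lay inside exons in 1391; exon numbers are those of that transcript. Columns of other samples numbered 0.

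Members, gene lists and tests were chosen with earlier results of these data known. Named circRNAs were the 15 higher and 15 lower, 1 per gene, whose nearer interval end lay farthest from 1. By the same rank 12 and 12 hosts were named, and 8 and 8 circRNAs by junction ratio. Also named were the 10 with most reads, each list's called members and its 6 members with most reads. Genes with both directions and the 5 hosts with most circRNAs were added. Not all are described, and others stand in the text as chosen after their values were seen. 1 gene list and 1 host are not reported here. The functions were tested on simulated data. Scripts ran in Python 3.11.15 with scipy 1.17.1, pandas 2.3.3, matplotlib 3.10.9 and numpy 2.4.6.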

Additional observations from a re-analysis of the deposited data

How the results depend on the processing

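The alternatives changed the scaling, the minimum reads, the fold, unlisted circRNAs, merging of junctions within 5 bases, circRNA type, marked junctions, and the added count or minimum of linear reads for junction ratios. A minimum of 20 reads, which compares fewer circRNAs, gave 66 higher circRNAs and 83 higher hosts by share, and 51 higher and 54 lower circRNAs by junction ratio. A 3-fold limit gave 55 lower by junction ratio. All other counts of calls stayed within 1.5 times those reported: by share, higher circRNAs ranged from 79 to 153 and lower ones from 99 to 162, and no named fold changed direction under the 2 scalings or the merging. The median-ratio scaling ended the calls of the hosts Lrp6, with a ratio of 0.52, Chd2 (0.54), Eri3 (0.54), Cep192 (0.51) and Gbe1 (0.54), among 8 hosts. Lists of type 2 epithelium and of fibrillar matrix depended on marked junctions. With 1 library per stage, leaving out a replicate could not be run. No paired analysis was possible because each group has 1 library. At this depth, circRNAs with few reads could not be called.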
